A study of Homo sapiens with 8 samples.

Results

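ATF3, BATF3, BATF and MAFF encode small basic leucine zipper transcription factors, and the accessible chromatin around their genes was followed in G401 cells while SMARCB1 was restored. The loci were taken by position: every peak in 3 windows of the hg19 genome was included, whatever its height. The windows were 260 kb on chromosome 1 from 212690000 to 212950000, which holds ATF3 (212738676 to 212794119) and BATF3 (212859755 to 212873327), 200 kb on chromosome 14 from 75900000 to 76100000 around the start of BATF at 75988784, and 100 kb on chromosome 22 from 38550000 to 38650000 around the start of MAFF at 38597939. They held 185 of the 411408 peaks of the 4 lists, which merged into 66 of 146099 regions: 33 in the ATF3-BATF3 window, 16 in the BATF window and 17 in the MAFF window.

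Basic leucine zipper proteins bind DNA as dimers, and JUN and FOS proteins pair to form the classical AP-1 factor. ATF3 is an immediate early gene of the stress response whose protein pairs with JUN proteins, among others. BATF and BATF3 lack a transactivation domain, pair with JUN proteins and are best known from T cells and dendritic cells. MAFF is a small MAF protein, also without a transactivation domain, which pairs with cap'n'collar factors such as NRF2. SMARCB1 is a core subunit of SWI/SNF, a complex that moves nucleosomes, and AP-1 factors are known to recruit that complex to enhancers.

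The established line G401 comes from a kidney rhabdoid tumour and has lost SMARCB1. ATAC-seq, which maps open DNA by where a transposase can insert, was done on an engineered stable derivative with an inducible SMARCB1, kept in serum free of tetracycline, so that all groups share the transgene. Day 0 was labelled SMARCB1 -/-, and the cells of days 1, 3 and 7, labelled SMARCB1 +/+, had doxycycline at 1 µg/ml for that time, with 2 replicates per group. The values are 1 peak list per day with 80744, 109876, 117606 and 103182 peaks on days 0, 1, 3 and 7, and the day 0 list is the one left once the others had been matched to their days. With 1 list per day, differences between days carry neither replicate errors nor p-values. The whole-number reads at each summit were recovered from the deposited values, and the genome-wide background was 6.34, 6.04, 6.73 and 6.10 reads on days 0, 1, 3 and 7. Summit height below means summit reads divided by that background, a ratio is a summit height over that of day 0, and the brackets hold 95% intervals of the ratio for counting error only. The authors' fold, where it is given, sets a summit against the local background of its own list. In RefSeq's order of protein-coding genes ATF3 lies between NENF and GARIN4, BATF3 between GARIN4 and NSL1, BATF between JDP2, which also encodes a basic leucine zipper protein, and FLVCR2, and MAFF between PLA2G6 and TMEM184B. Whether a region lies in one of these neighbours was not analysed here. In such bulk samples, more cells open at a region and a more open region per cell cannot be told apart.

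The stretches before 3 of the starts are shown because a peak lay over the MAFF start on every day and over the ATF3 and BATF starts used here on none. The RefSeq promoter sequences at hand (GRCh38.p14) covered 3 of the 4 genes, and BATF3, which was not among them, is only named. The 250 bases before each first RefSeq start follow, 5′ to 3′, all from the + strand, and that start need not be the same base as the hg19 start above. Capitals mark the letters TGACGTCA, an ATF/CRE site, which is its own reverse complement.
MAFF, chr22:38201744-38201993: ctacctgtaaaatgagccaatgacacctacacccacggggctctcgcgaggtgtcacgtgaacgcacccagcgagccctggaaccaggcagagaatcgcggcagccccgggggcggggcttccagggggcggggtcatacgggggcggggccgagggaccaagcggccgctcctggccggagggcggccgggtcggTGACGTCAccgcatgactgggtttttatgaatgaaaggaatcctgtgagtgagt
ATF3, chr1:212565157-212565406: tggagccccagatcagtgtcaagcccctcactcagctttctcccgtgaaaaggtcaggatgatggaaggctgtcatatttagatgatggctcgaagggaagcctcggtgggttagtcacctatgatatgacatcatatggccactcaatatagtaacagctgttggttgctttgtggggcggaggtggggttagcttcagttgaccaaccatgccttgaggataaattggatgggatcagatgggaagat
BATF, chr14:75522219-75522468: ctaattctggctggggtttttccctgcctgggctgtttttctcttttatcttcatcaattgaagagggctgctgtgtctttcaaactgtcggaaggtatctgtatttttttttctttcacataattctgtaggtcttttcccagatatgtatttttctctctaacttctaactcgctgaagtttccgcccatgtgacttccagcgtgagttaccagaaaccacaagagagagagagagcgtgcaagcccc

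The MAFF stretch was 65.6% G and C with 22 CpG, the ATF3 stretch 49.2% with 4 and the BATF stretch 43.2% with 5, where the median of 35116 promoters of this length was 58.0% with 11. RefSeq gave ATF3 and MAFF a further start each, 49.6 kb and 1026 bp downstream of the first, whose stretches were 44.8% G and C with 0 CpG and 70.4% with 24. The letters TGACGTCA, found in 1.65% of all promoters, began 54 bases before the first MAFF start. The AP-1 site TGACTCA, searched on both strands as TGACTCA and TGAGTCA, was in 4.20% of all promoters and in none of the 5 stretches of these genes. Neither motif holds the other. Such a match describes the letters alone. Whether the make-up of a stretch is linked to a peak over the start was not tested.

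The windows held 32, 46, 58 and 49 peaks on days 0, 1, 3 and 7. This was 1.44, 1.81 and 1.53 times the day 0 number, while all peaks of the lists stood at 1.36, 1.46 and 1.28 times. The loci did not share that course. The ATF3-BATF3 window had 14, 23, 32 and 27 peaks on days 0, 1, 3 and 7. The BATF window had 6, 9, 14 and 12. With the same number of peaks taken from each list, these counts were 14, 22, 20 and 22 for ATF3-BATF3, where day 3 was no longer the highest, and 6, 8, 11 and 7 for BATF. The MAFF window had 12, 14, 12 and 10, and so had fewer peaks on day 7 than on day 0. With the same number of peaks from each list it had 12, 11, 10 and 10, where day 1 no longer stood above day 0. Peaks covered 10082 bp of the ATF3-BATF3 window on day 0 and 18388 bp on day 3, 4214 and 7772 bp of the BATF window, and 8517 and 9037 bp of the MAFF window.

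Counted as merged regions, the windows together were close to the genome. A peak on every day was seen at 28 of the 66 regions (42.4%), against 41.6% of all regions. Gained regions, meaning those absent from day 0 and present on each of the 3 induced days, were 10 of 66 (15.2%), against 13.1%. The 10 were unevenly spread, with 9 of 33 regions in the ATF3-BATF3 window, 1 of 16 in the BATF window and 0 of 17 in the MAFF window. Of the regions with a peak on an induced day, 16 of 45 lacked a day 0 peak on day 1, 27 of 56 on day 3 and 18 of 47 on day 7, where the shares over the genome were 36.3%, 41.8% and 35.2%. On day 3 this was 17 of 30 regions in the ATF3-BATF3 window, 8 of 14 in the BATF window and 2 of 12 in the MAFF window. Of the 32 regions with a day 0 peak, 3 had no peak on day 1, 3 none on day 3 and 3 none on day 7, against 13.0%, 14.6% and 17.4% of all regions.

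Where a region had a peak both on day 0 and later, its summit mostly stayed near the day 0 height. A single region of 29, in ATF3, was at least 2-fold higher on day 1, and the same region was the only one on day 3 and on day 7. Over the genome 3.48%, 3.66% and 2.10% of such regions were at least 2-fold higher, so 1 of 29 is near the background. Summits at least 2-fold lower numbered 0 of 29 on each day, against 0.0146%, 0.0686% and 0.0585%. At the 28 regions with a peak on every day the median ratio was 1.13, 1.04 and 0.986 on days 1, 3 and 7, and over all 60786 such regions it was 1.06, 0.943 and 0.972. The 3 ratios of a region share their day 0 value.

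**Figure D1:**
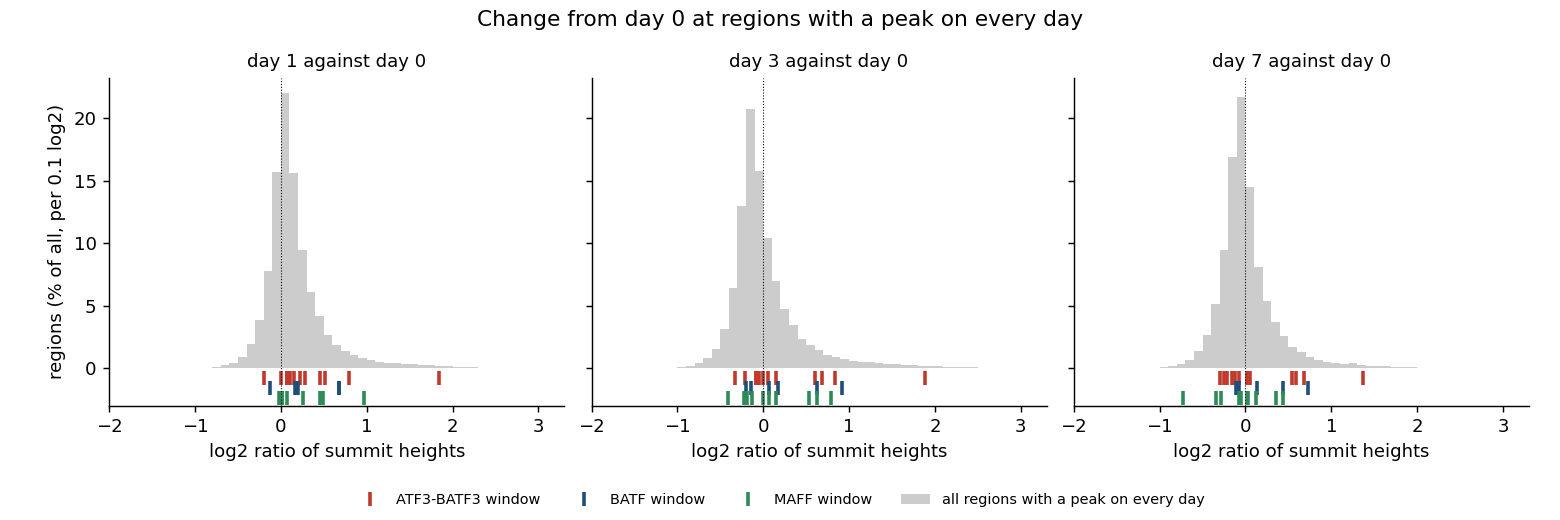
Log2 ratio of summit heights to day 0 (x axis) at regions with a peak on every day, for days 1, 3 and 7. Grey bars give the percent of all 60786 such regions per 0.1 log2, and ticks below 0 mark the 28 regions of the windows by locus; most ticks lie in the bulk of the bars, and the rightmost tick on each day is the ATF3 region with ratios of 3.57, 3.70 and 2.58.

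Around ATF3, regions on both sides of the start were higher on the induced days than on day 0 or listed on those days alone, while the highest summit of the gene changed little. No peak lay over the start at 212738676 on any day, the nearest peak being 1738, 1505, 1400 and 1588 bp away on days 0, 1, 3 and 7. ATF3 is known to be transcribed from more than one promoter, and the start used here is the outermost, so the absence of a peak concerns that base alone.

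The region 1.89 kb inside the gene, chromosome 1, 212740076 to 212740892, had 25 summit reads on day 0 and 85, 98 and 62 on days 1, 3 and 7. Its summit height was 3.94 on day 0 and 14.1, 14.6 and 10.2 afterwards, so all 3 induced days stood above day 0. The ratios were 3.57 (2.26 to 5.82), 3.70 (2.36 to 5.99) and 2.58 (1.60 to 4.28). Among all regions with a peak on both days, 0.591%, 0.644% and 0.858% had a ratio at least as high on days 1, 3 and 7. Its local background was also 1.60, 1.85 and 1.27 times that of day 0, and by the authors' fold the ratios were 2.17, 2.19 and 1.97. The peak was 324 bp wide before induction and 712, 801 and 620 bp wide on days 1, 3 and 7. From day 3 to day 7 the summit went to 0.697 of its height (0.499 to 0.968), still above day 0.

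A region 3.68 kb before the start, 212734655 to 212735344, had no day 0 peak and 91, 99 and 57 summit reads on days 1, 3 and 7. Its summit heights were 15.1, 14.7 and 9.34 and its authors' folds 7.68, 7.81 and 6.16. Of all 19074 gained regions, 4.18%, 6.34% and 9.82% had a fold at least as high. The day 7 summit was 0.635 of that on day 3 (0.450 to 0.888). The smallest summit of the day 0 list held 18 reads, so a weaker opening on day 0 would not have been listed. Summits are set against local background, so an opening somewhat above 18 reads could also be missing.

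Inside the gene, 18.1 kb from the start, the region 212756182 to 212757372 also lacked a day 0 peak. It had 85, 109 and 61 summit reads on days 1, 3 and 7, heights of 14.1, 16.2 and 10.0, and a day 7 summit at 0.617 of day 3 (0.443 to 0.852). The region 35.8 kb before the start, 212702542 to 212703259, had 61, 71 and 67 reads on those days and no day 0 peak. Unlike the pair nearer the start it did not fall on day 7, with heights of 10.1, 10.6 and 11.0. Whether these steps differ between regions was not tested.

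The highest summit of the window lay elsewhere in ATF3 and changed little. At 212781283 to 212783161, 43.3 kb inside the gene and 1879 bp wide, the summit held 210, 201, 215 and 185 reads on days 0, 1, 3 and 7. The heights were 33.1, 33.3, 32.0 and 30.3, and the ratios 1.00 (0.824 to 1.22), 0.966 (0.795 to 1.17) and 0.916 (0.748 to 1.12). Each interval holds 1. On day 0, 3.60% of all regions with a peak had a summit at least as high. Whether this region covers an inner start of ATF3 was not analysed here, since the annotation at hand is of another build.

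Further regions around ATF3 stood above day 0 by less than 2-fold. At 212768637 to 212770097, 31.1 kb inside the gene, the summit had 65, 85, 111 and 91 reads on days 0, 1, 3 and 7. The ratios were 1.37 (0.982 to 1.93), 1.61 (1.18 to 2.22) and 1.46 (1.05 to 2.03). The authors' fold gave 1.06, 1.27 and 1.23, beside a local background 1.24, 1.36 and 1.14 times that of day 0. The highest point of that region also moved, lying 356, 326 and 331 bp from its day 0 place on days 1, 3 and 7. At 212706104 to 212706635, 32.4 kb before the start, 29 reads on day 0 were followed by 48, 55 and 45, with ratios of 1.74 (1.07 to 2.86), 1.79 (1.12 to 2.91) and 1.61 (0.990 to 2.67). By the authors' fold these were 1.15, 1.15 and 1.12, beside a local background 1.48, 1.72 and 1.43 times that of day 0. At 212691694 to 212692588, 46.5 kb before the start, 82 reads were followed by 112, 132 and 118, with ratios of 1.43 (1.07 to 1.93), 1.52 (1.14 to 2.03) and 1.5 (1.12 to 2.01). The direction at this last region depends on the scale on day 1, where the authors' fold gave 0.968.

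**Figure D2:**
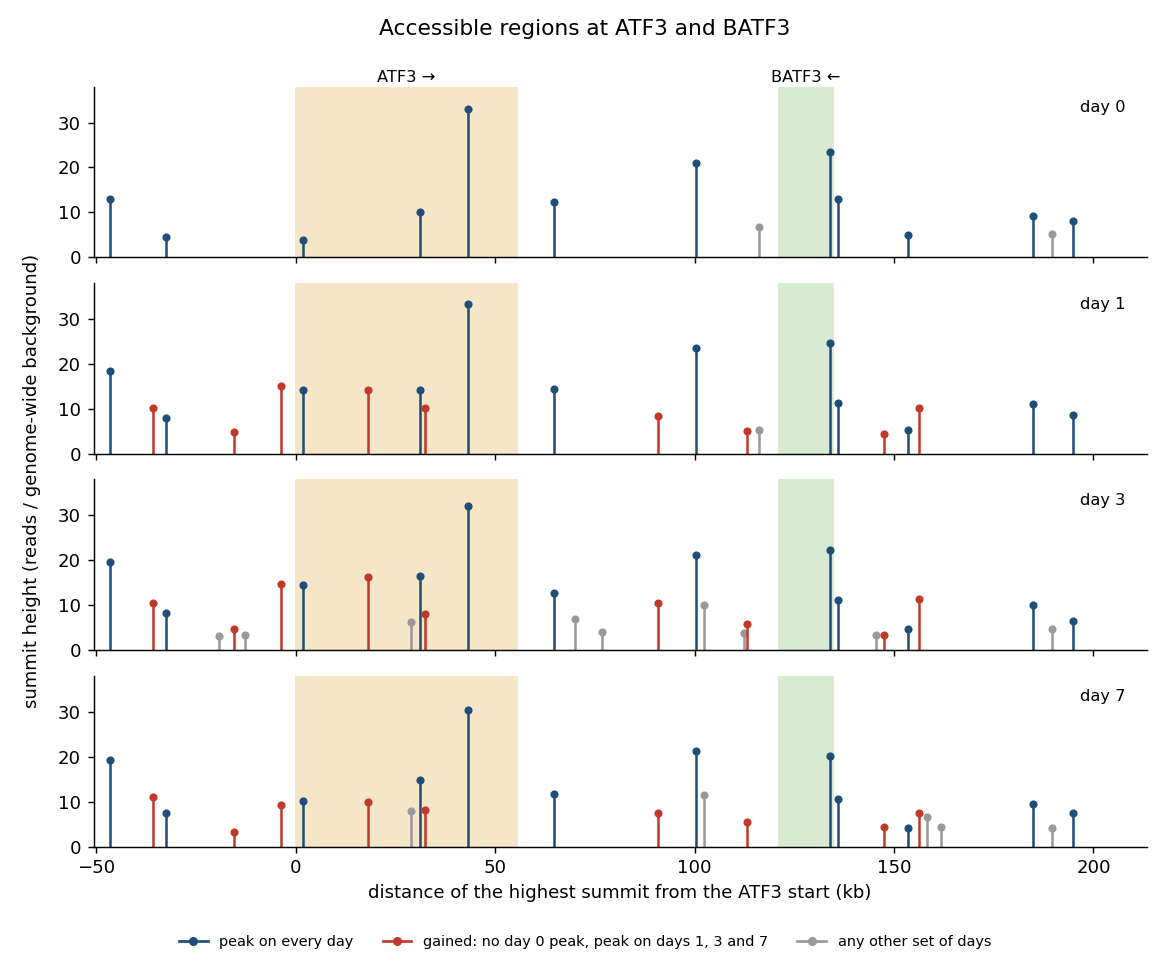
Summit height (reads over genome-wide background, y axis) of each region against the distance of its highest summit from the ATF3 start in kb (x axis), 1 panel per day from day 0 to day 7. Shaded spans mark ATF3 and BATF3 with arrows for their direction, and colours mark regions with a peak on every day, gained regions, and all others; the 9 gained regions are absent on day 0 and appear on both sides of the ATF3 and BATF3 starts.

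BATF3, on the other strand of the same window, had a peak over its start on every day. The region 212872278 to 212873962, whose highest summit lay 694 bp inside the gene, held 149, 149, 149 and 123 summit reads on days 0, 1, 3 and 7. Its heights were 23.5, 24.7, 22.2 and 20.2, and its ratios 1.05 (0.831 to 1.33), 0.943 (0.746 to 1.19) and 0.858 (0.670 to 1.10), so every interval holds 1. On days 1 and 3 it held 2 peaks, of which the higher was used. With the summits of both added, the ratios on those days were 1.5 and 1.34. This sets 2 summits against 1 on day 0, so it is higher by construction and says nothing on direction. A second region open on every day stood 1.25 kb before the start, at 212874334 to 212874796, with 82, 68, 75 and 64 reads; it lies outside the naming rule and was picked after its values were seen.

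The regions around BATF3 that had no day 0 peak lay farther from its start, at 10.7 kb or more. Only some met the naming rule, and those are given here. The one at 212829256 to 212829843, between ATF3 and BATF3 and 43.7 kb downstream of the BATF3 start, had 51, 71 and 46 summit reads on days 1, 3 and 7. Its heights were 8.44, 10.6 and 7.54, lower than those beside the ATF3 start, but its authors' folds of 6.91, 8.61 and 6.62 were close to or above them. Of all gained regions, 7.31%, 3.41% and 6.97% had a fold at least as high. The one at 212894680 to 212895528, 21.7 kb before the BATF3 start, had 61, 76 and 46 reads, and its day 7 summit was 0.667 of that on day 3 (0.452 to 0.975). Of the rest of this window, the highest summit was 34.4 kb downstream of the BATF3 start at 212838320 to 212839300, a region picked after its values were seen, with 134, 142, 142 and 130 reads. The 22 regions of the window that the naming rule did not take up had heights of 3.12 to 23.5 and widths of 205 to 981 bp.

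BATF had no peak over its start either, and the summits of its window with a ratio interval wholly above 1 on an induced day lay upstream. How many of all regions had such an interval was not analysed here. The nearest peak to the start lay 3318, 3313, 3319 and 3296 bp away on days 0, 1, 3 and 7. It belonged to the region 75985049 to 75985488, 3.55 kb before the start, with 54, 47, 50 and 48 summit reads and ratios of 0.914, 0.873 and 0.924, so it stood slightly below day 0 on each day, within counting error. The highest summit of the window was 68.9 kb before the start, at 75918993 to 75920443. It held 122 reads on day 0 and 186, 201 and 158 on days 1, 3 and 7, so that each induced day was above day 0. The ratios were 1.60 (1.27 to 2.03), 1.55 (1.23 to 1.96) and 1.35 (1.06 to 1.72), and by the authors' fold 1.20, 1.14 and 1.14. Among all regions with a peak on both days, 6.84%, 6.98% and 8.90% had a ratio at least as high. Its peak widened from 950 bp on day 0 to 1396, 1451 and 1297 bp.

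The region 45.4 kb before the BATF start, 75943259 to 75943725, had 25, 38, 50 and 40 summit reads on days 0, 1, 3 and 7. Its ratios were 1.60 (0.938 to 2.76), 1.89 (1.15 to 3.18) and 1.66 (0.985 to 2.86), and the interval excludes 1 on day 3 alone. By the authors' fold the ratios were lower, at 1.11, 1.12 and 1.19, beside a local background 1.4, 1.83 and 1.36 times that of day 0. Next to it, at 75946466 to 75947151, lay the single gained region of the window. It had 37, 54 and 32 reads and authors' folds of 3.18, 3.52 and 2.84. These folds are below those of the gained regions 3.68 kb before and 18.1 kb inside ATF3, while other gained regions there, picked after their values were seen, were as low, such as that 32.3 kb inside ATF3 with 2.97, 2.40 and 2.65. At 75954894 to 75955774, 33.5 kb before the start, 55, 60, 66 and 58 reads were within counting error of day 0.

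Downstream of the BATF start the regions without a day 0 peak were low and listed on only some days. The region 9.43 kb from the start, 75997872 to 75998371, had 31 and 29 reads on days 3 and 7. The region at 17.9 kb had 31 and 38 reads on days 1 and 3, that at 37.7 kb had 32 and 34 on the same days, and that at 16.8 kb had 25 on day 7. Farther out, 93.1 kb and 109 kb downstream, day 3 summits held 30 reads each, and the latter had 24 on day 7. Against these, 2 regions picked after their values were seen had a peak on every day. The one 55.5 kb downstream, 76043884 to 76045409, had 106, 113, 102 and 97 reads on days 0, 1, 3 and 7. The one 38.8 kb downstream, 76027170 to 76027790, had 100, 108, 111 and 90 reads and the highest authors' folds of the window at 9.39, 10.1, 8.81 and 8.75. The 5 regions of the window outside the naming rule had heights of 3.42 to 18.7 and widths of 200 to 1526 bp.

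MAFF had one of the 2 highest summits of its window over its start on every day. The region 38597425 to 38599630 was 2206 bp wide, with its highest summit 44 bp before the start. It held 208, 199, 194 and 190 reads on days 0, 1, 3 and 7, heights of 32.8, 32.9, 28.8 and 31.1. The ratios were 1.00 (0.823 to 1.23), 0.880 (0.720 to 1.07) and 0.95 (0.776 to 1.16), and the summit positions of the 4 days lay within 20 bp of each other. The window's highest summit was 20.0 kb before the start, at 38576929 to 38578265, with 218, 209, 211 and 202 reads.

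Most other regions of the MAFF window were open before SMARCB1 was restored. At 38549863 to 38550754, 47.6 kb before the start, 37 reads on day 0 were followed by 69, 68 and 48. The ratios were 1.96 (1.29 to 3.00), 1.73 (1.14 to 2.66) and 1.35 (0.860 to 2.13), so the summit was highest on day 1 and its interval holds 1 on day 7. At 38614477 to 38615246, 16.8 kb after the start, 97, 127, 158 and 102 reads gave ratios of 1.37 (1.05 to 1.81), 1.54 (1.19 to 2.00) and 1.09 (0.820 to 1.46). The day 7 summit there was 0.712 of that on day 3 (0.549 to 0.919). At 38636824 to 38637362, 39.2 kb after the start, 56 reads were followed by 75, 86 and 69, with the interval excluding 1 on day 3 alone at 1.45 (1.02 to 2.07).

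The MAFF window also held the single region of the windows whose interval lay wholly below 1 on a later day. The share of all regions with such an interval was not analysed here. At 38563206 to 38564535, 33.9 kb before the start, the summit had 79, 74, 63 and 46 reads on days 0, 1, 3 and 7, lower on each later day. The ratios were 0.983, 0.752 (0.531 to 1.06) and 0.605 (0.411 to 0.882), and by the authors' fold the day 7 ratio was 0.802. Among all regions with a peak on days 0 and 7, 99.5% had a day 7 ratio at least as high. Openings without a day 0 peak were each listed on 1 or 2 induced days in the MAFF window, and on day 7 there was none. Those 37.2 kb and 7.38 kb before and 27.6 kb after the start were seen on day 1 alone, with 41, 32 and 38 reads, that 14.3 kb before it on day 3 alone with 36, and that 41.2 kb after it on days 1 and 3 with 49 and 59. A peak on day 0 alone was seen at 2 of the 17 regions, 21.8 kb before and 37.7 kb after the start. They had 77 and 45 reads and authors' folds of 1.76 and 2.70. Over all windows this was 2 of 66 regions (3.03%), against 4.26% of all regions. The 6 regions of the window outside the naming rule, these 2 among them, had heights of 7.09 to 19.7. Of these the one at 38573681 to 38574486, 24.1 kb before the start, was picked after its values were seen: 104, 119, 122 and 79 reads on days 0, 1, 3 and 7 put its day 7 summit at 0.714 of day 3 (0.531 to 0.955).

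**Figure D3:**
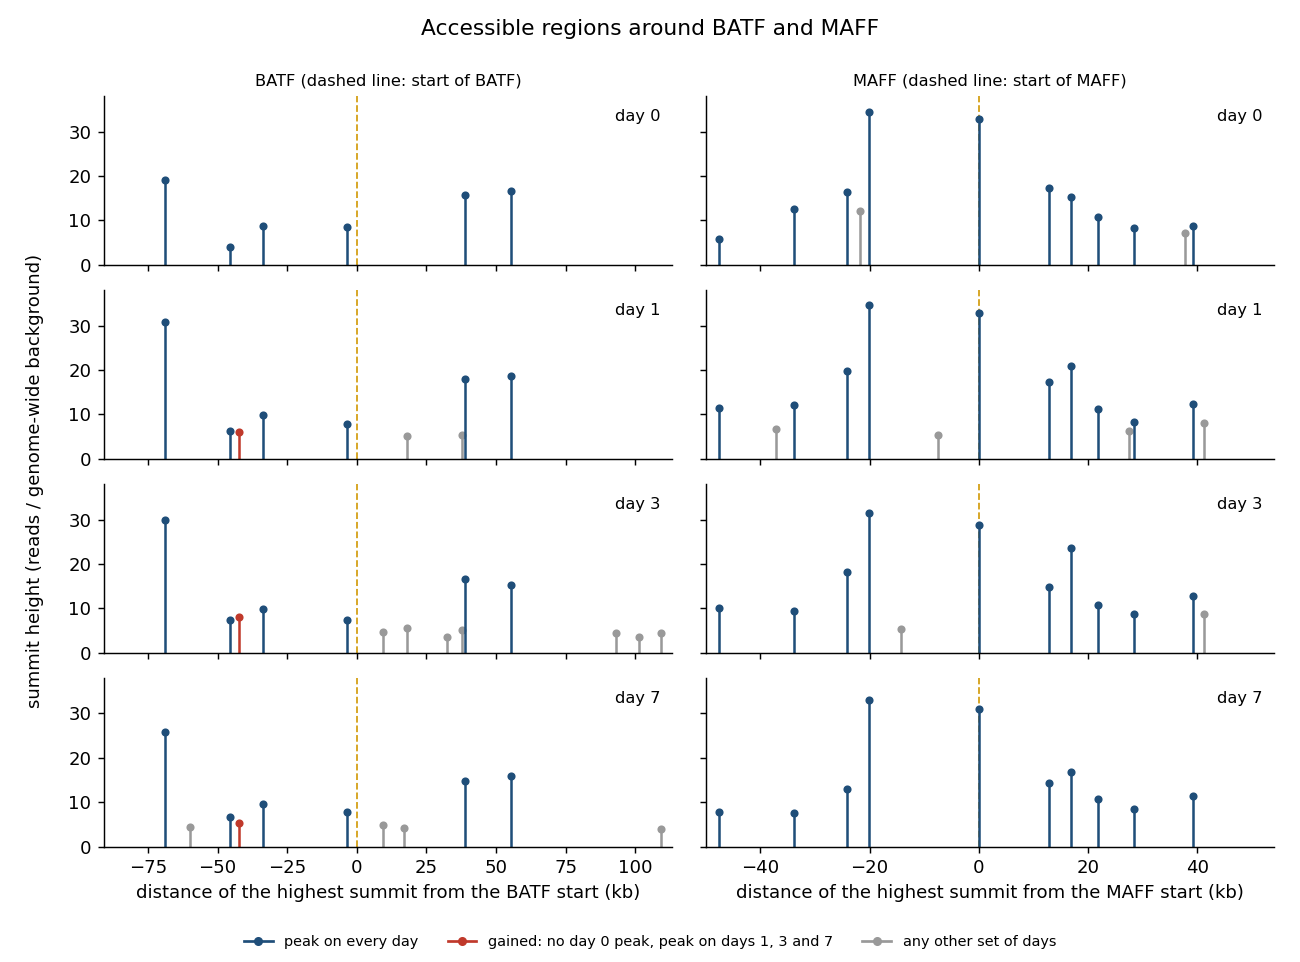
Summit height (reads over genome-wide background, y axis) of each region in the BATF window (left) and the MAFF window (right) against the distance of its highest summit from the start in kb (x axis), 1 row per day. The MAFF start holds a summit of 28.8 to 32.9 on every day and the BATF start none; the grey summits, with peaks on some days only, reach at most 5.65 in the BATF window, on day 3.

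The 10 gained regions of the windows had median heights of 9.27, 9.29 and 7.54 on days 1, 3 and 7. Over all 19074 gained regions the medians were 6.62, 8.03 and 6.39. The 10 were lower on day 7 than on day 3 in 7 cases, against 77.3% of all such regions. Day 3 was the highest day in 5 of the 10, day 1 in 4 and day 7 in 1, where over the genome day 3 was the highest in 58.5%. Their median width was 688 bp, against 630 bp over the genome.

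**Figure D4:**
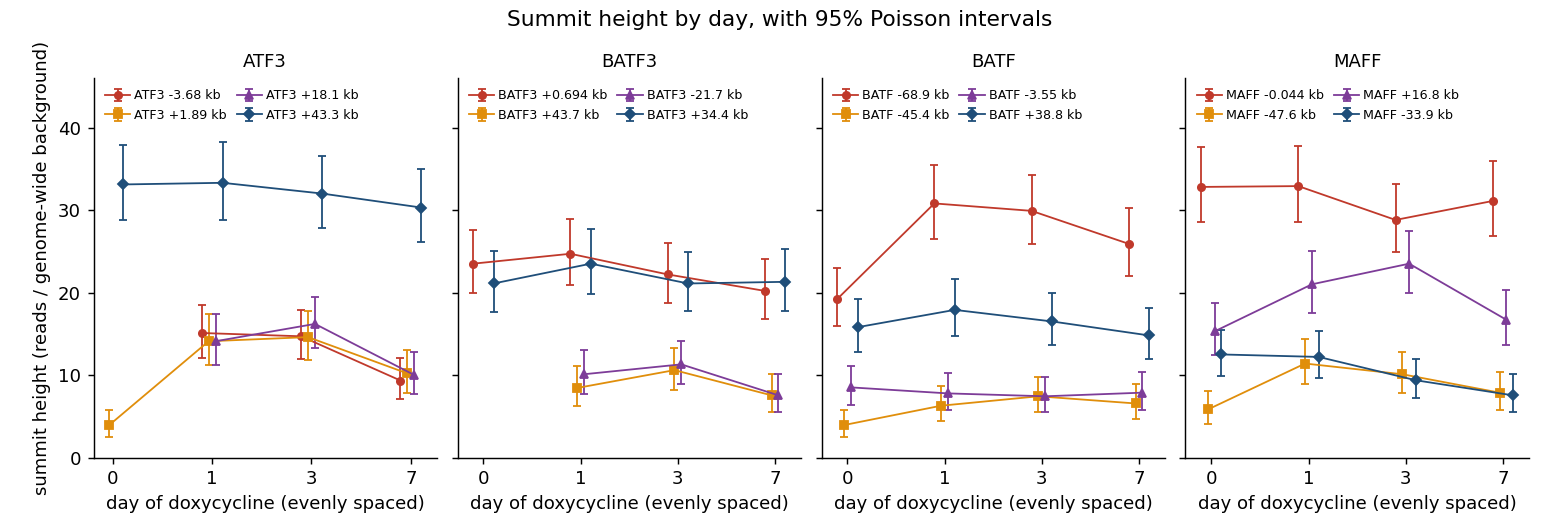
Summit height (reads over genome-wide background, y axis) on days 0, 1, 3 and 7 (x axis, days evenly spaced) for 4 regions each of ATF3, BATF3, BATF and MAFF, named by their distance from the start in kb. Bars are 95% Poisson intervals for counting error only, and a missing day 0 point means that no peak was listed; the high summits at ATF3 +43.3 kb, the BATF3 start and the MAFF start stay level while ATF3 +1.89 kb goes from 3.94 on day 0 to 14.1 on day 1.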

How the data were processed

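ATAC-seq of 8 samples (4 days, 2 replicates each) was represented by 1 deposited narrowPeak file that joins 4 peak lists. Bowtie2, deepTools, MACS2 version 2.1.1.20160309 and the build hg19 are named, per the submitters' processing notes, with no role or order. How replicates entered the calling, and any filter, is not stated in the sources at hand. Nothing in the labels says whether replicates came from separate cultures. Lists were matched to days by the day in their peak names. The list with no day in its name was taken as day 0 by elimination.

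Per peak, the deposited score equals -log10 q multiplied by 10 and truncated. The deposited fold is the authors' ratio of summit to local background, and its p-value and q-value are deposited as -log10 by the authors. The deposited summit position is an offset from the peak's start in bp. Summit reads were recovered from fold, taken as (reads + 1) / (background + 1), and -log10 p. In 100% of peaks 1 whole number of reads matched the -log10 p to 0.005, and any other missed it by 0.0272 or more. The commonest background of a list was taken as genome-wide (18.5% to 21.0% of peaks). The smallest summits held 18, 16, 17 and 18 reads and the median summits 57, 51, 52 and 48 on days 0, 1, 3 and 7, so weak peaks carry wide counting error. PCR copies would make the intervals too narrow.

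Peaks sharing at least 1 bp across lists were merged, and a day's value is its highest summit. Ratios have exact conditional binomial 95% intervals. Some named regions were picked for a large ratio, so an interval that excludes 1 there is no test of change. No test was made, since the lists hold no value per sample. Recovery and merging were tested on simulated data. Regions are named that lie within 1 kb of a start, hold a window's highest summit, are among its 3 largest changes from day 0 in either direction, are among its 3 highest folds without a day 0 peak, or lie in ATF3 or BATF3 with a ratio past 2-fold. The loci and this rule were chosen with earlier results of these data known. Other AP-1 genes, genes with a like pattern and the exons and introns at each region were not analysed here, since no hg19 annotation was at hand. Alternatives were a stricter q, equal list lengths, joined or reciprocal overlaps, other fold limits, the authors' fold and summed summits. Python 3.11.15, NumPy 2.4.6, pandas 2.3.3, SciPy 1.17.1 and matplotlib 3.10.9 were used. Coordinates are 1-based.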

Additional observations from a re-analysis of the deposited data

How the results depend on the processing

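Depth limits the weak regions most, and neither the spread between replicates nor the effect of leaving one out could be measured. No paired analysis was possible because the lists hold no value per sample. With a -log10 q of at least 5, the ATF3-BATF3 window had 7 gained regions of 29, in place of 9 of 33. The BATF window then had 2 gained regions in place of 1. Regions with a day 0 peak only were 1 in the MAFF window in place of 2. With the same number of peaks from each list, the ATF3-BATF3 window had 20 peaks on day 3 in place of 32. Its gained regions were 6 of 27 in place of 9 of 33, and 1 region in place of 0 had a day 0 peak only. The BATF window had 7 peaks on day 7 in place of 12 and 0 gained regions in place of 1. A limit of 1.5-fold gave 2, 4 and 2 higher regions on days 1, 3 and 7 in the ATF3-BATF3 window, 2, 2 and 1 in the BATF window, and 1 and 2 on days 1 and 3 in the MAFF window. A limit of 3-fold, and the authors' fold, each gave 0 on day 7 in the ATF3-BATF3 window in place of 1. The shares over all regions under these other settings were not analysed here. Whether the windows differ from the genome there therefore cannot be read from these counts. Summing the summits of a region gave 1.5 and 1.34 on days 1 and 3 at the BATF3 start, in place of 1.05 and 0.943. There 2 summits were set against 1 on day 0. By the authors' fold the region 46.5 kb before ATF3 turned direction on day 1, at 0.968. Joining peaks up to 200 bp apart, or asking for a reciprocal overlap of 50%, left the counts of gained and lost regions per window unchanged. Where neither fewer peaks, added summits nor another limit is the cause by construction, the cause was not tested.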
